A study of Mus musculus with 12 samples.

Results

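Knockout of Ep300 was set directly against knockout of its paralog Crebbp in B16F10 cells, an established mouse melanoma cell line, in 6 of the 12 RNA sequencing libraries of the study. The members are all 18434 genes with enough reads to test, of 54752 in the count table, and the comparison includes the genes that the 2 losses moved in opposite directions relative to control. The groups are Ep300 knockout (3 libraries), Crebbp knockout (3), a double knockout of Ep300 and Crebbp (3) and wild-type control cells (3), all B16F10 grown in DMEM with serum. The last 2 groups place the levels of the single knockouts, and control defines the changes against control. Their libraries also enter the common fit behind every p-value. How each knockout was made, whether it is 1 clone or a pool of cells, and whether its 3 libraries came from separate cultures are not stated in the labels, so each p-value measures the spread between these libraries, which may be technical.

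Ep300 and Crebbp encode p300 and CBP, large histone acetyltransferases that are recruited by transcription factors and acetylate histones at enhancers and promoters, with acetylation of histone H3 at lysine 27 as the best known mark. They share their catalytic, bromodomain and factor-binding domains and bind many of the same partners, among them CREB, STAT proteins, IRF proteins and AP-1 factors. In melanocytes they are known as coactivators of MITF, the transcription factor that drives the pigment genes.

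Libraries held 64257251 to 85604243 counts, and levels are given below as CPM, a gene's counts relative to its library's total after TMM scaling. A gene was called when the adjusted p of edgeR's quasi-likelihood test, with Benjamini-Hochberg adjustment over the 18434 genes, was below 0.05, and every log2 difference is Ep300 knockout minus Crebbp knockout with its standard error unless another contrast is named. The first principal component of the 6 libraries carried 44.4% of their variance and separated the groups, at -34.8, -30.4 and -31.7 for Ep300 knockout and 29.2, 34.3 and 33.5 for Crebbp knockout. The second carried 18.2%, and Ep300 knockout replicate 3 at -23.8 and Crebbp knockout replicate 3 at 32.2 lay farthest from the other libraries of their groups on it. Without those 2 libraries, 3815 genes were called in place of 2512. The 7 markers of melanocytic identity summed to 14300 to 15020 CPM in Ep300 knockout and 18350 to 19160 CPM in Crebbp knockout, while the 7 immune markers summed to 4.13 to 5.2 CPM in Ep300 knockout and 2.23 to 3.12 CPM in Crebbp knockout, with Adgre1 at 0 in both groups. The 6 fibroblast markers summed to 14.5 to 19.4 CPM in Ep300 knockout and 8.56 to 12.3 CPM in Crebbp knockout, and those of endothelium and epithelium stayed at or below 0.493 CPM in every library of both groups. The median log2 difference per chromosome ran from -0.043 to 0.031.

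The transcript of Crebbp (ENSMUSG00000022521, on the minus strand of chromosome 16 at 4081328 to 4213997 in mm10) stood at 69.1, 80.1 and 92.9 CPM in Ep300 knockout, against 36.8, 36.3 and 30.3 CPM in Crebbp knockout. Every Crebbp knockout library lay below every Ep300 knockout library, with 69.5, 56.7 and 67.9 CPM in control. The log2 difference was 1.23 ± 0.12 (adjusted p = 2.35e-06, edgeR). That of Ep300 (ENSMUSG00000055024, on the plus strand of chromosome 15 at 81585351 to 81652077) was at 77.5, 82.9 and 94.7 CPM in Ep300 knockout, against 111, 112 and 89.9 CPM in Crebbp knockout, and these libraries overlap. Its log2 difference of -0.29 ± 0.10 was not called (adjusted p = 0.0667, edgeR), and it became a call when Ep300 knockout replicate 3 (-0.38), Crebbp knockout replicate 3 (-0.39), both of them (-0.47) or control replicate 2 (-0.29) was left out. Double knockout averaged 148 CPM for Ep300 and 64.0 CPM for Crebbp, against 94.4 and 64.7 CPM in control. Counts per gene cannot tell a transcript that lacks an exon from an intact one, so the Ep300 transcript does not check the labels of the Ep300 knockout libraries, and the groups are those of the labels.

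Between the knockouts, most listed genes of the interferon response and of MHC class I antigen presentation were called higher in Ep300 knockout, and most listed genes of the melanocyte lineage, of neural crest and glia and of cholesterol synthesis were called lower. In all, 2512 of 18434 genes were called, which is 13.6% of those tested. Of these, 1154 were higher in Ep300 knockout (6.26% of all tested genes) and 1358 were lower (7.37%), and the median log2 difference over all tested genes was 0.0048. The large differences were mostly positive: of 620 calls of at least 2-fold (3.36%), 393 were higher and 227 lower in Ep300 knockout. All 3 libraries of 1 group lay beyond all 3 of the other in 2472 of the 2512 calls, and in 27.1% of all tested genes. Against control, 2969 genes (16.1%) were called in Ep300 knockout, 7.27% of those tested higher and 8.83% lower, and 577 (3.13%) in Crebbp knockout, 1.52% higher and 1.61% lower. These 2 comparisons share the control libraries.

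**Figure D1:**
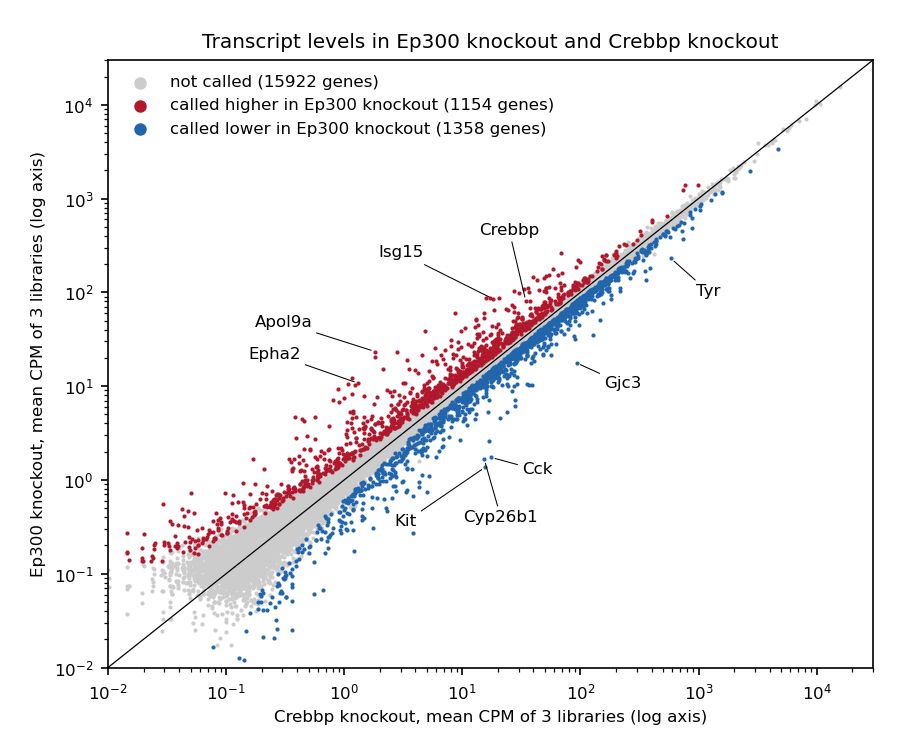
Mean CPM of 3 libraries in Ep300 knockout (vertical, log axis) against the mean CPM of 3 libraries in Crebbp knockout (horizontal, log axis), 1 point a gene, with 22 tested genes under 0.01 CPM in a group left off. The 1154 red genes lie above the line of equal level and the 1358 blue genes below it, and Kit, Cck and Cyp26b1 lie farthest below it among genes of at least 5 CPM.

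Among genes that average at least 5 CPM over the 6 libraries, the largest positive differences included many interferon-induced genes and Epha2. Apol9a, an interferon-induced gene of the apolipoprotein L family, had 23.7, 23.9 and 22.5 CPM in Ep300 knockout, against 2.05, 1.72 and 1.71 CPM in Crebbp knockout (log2 difference 3.67 ± 0.08, adjusted p = 6.60e-13, edgeR). Its near-identical paralog Apol9b differed by 3.47 ± 0.08, and reads shared between them could be split by the counting. Epha2 (ENSMUSG00000006445, chromosome 4, 141301240 to 141329384, plus strand), an ephrin receptor tyrosine kinase, had 10.5, 10.4 and 11.3 CPM in Ep300 knockout, against 1.34, 1.34 and 1.26 CPM in Crebbp knockout (3.03 ± 0.09, adjusted p = 1.33e-11, edgeR). The groups are far apart in each of these, where the choice of genes already required libraries that do not overlap. The lowest Ep300 knockout library of Epha2 is several times the highest of Crebbp knockout. Others among the largest were Ifi211, Ifi204, Ifi44, Tgtp2, Oasl2, Trim30d, Usp18 and Igtp, all interferon-induced genes, at 2.46 to 3.40.

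At the other end, Kit (ENSMUSG00000005672, chromosome 5, 75574916 to 75656722, plus strand), the receptor for stem cell factor on which melanoblasts depend, had 1.24, 1.21 and 1.64 CPM in Ep300 knockout, against 15.8, 15.6 and 15.4 CPM in Crebbp knockout. Its log2 difference of -3.51 ± 0.11 (adjusted p = 1.86e-11, edgeR) was the largest negative one. Control had 13.1, 12.1 and 13.6 CPM of it, and the change in Crebbp knockout was not called (adjusted p = 0.144, edgeR). Cck, which encodes the peptide cholecystokinin, had 1.85, 1.90 and 1.47 CPM in Ep300 knockout, against 16.6, 17.0 and 19.0 CPM in Crebbp knockout (-3.33 ± 0.12, adjusted p = 4.17e-11, edgeR). Cyp26b1, an enzyme that degrades retinoic acid, had 1.32, 1.83 and 1.83 CPM in Ep300 knockout, against 15.9, 15.9 and 14.2 CPM in Crebbp knockout (-3.20 ± 0.13, adjusted p = 2.26e-10, edgeR). The libraries of the 2 groups do not overlap in these genes, which the choice of genes required, and the gap is wide in each. Other large ones were the orphan receptor gene Gpr37 at -2.69 ± 0.10, the connexin gene Gjc3 at -2.39 ± 0.07, the lipid transporter gene Abca12 at -2.20 ± 0.10, the transcription factor gene Sox9 at -2.20 ± 0.15, Cpne4 at -2.18 ± 0.08, Sema6a at -1.90 ± 0.10, Enpp2, which encodes the lysophospholipase autotaxin, at -1.89 ± 0.07, and Gas7 at -1.84 ± 0.10.

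**Figure D2:**
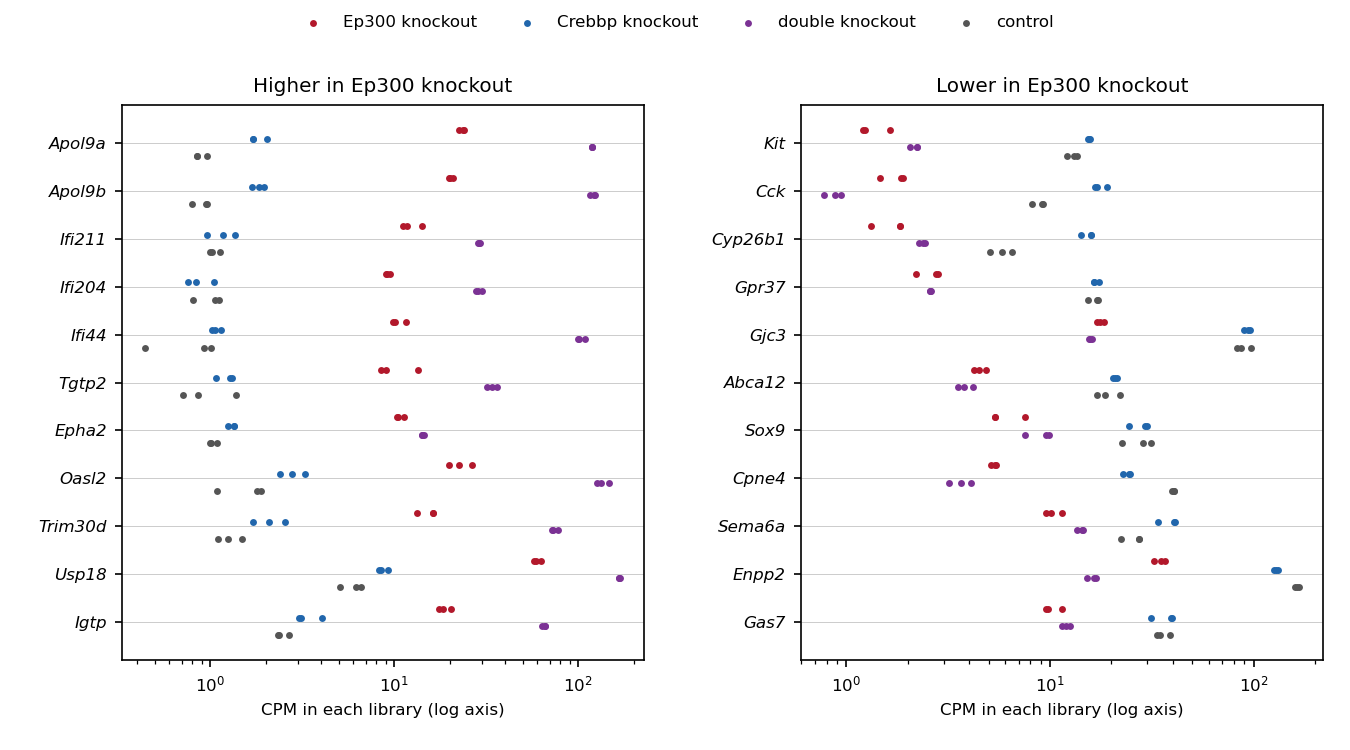
CPM in each library (horizontal, log axis) for 11 of the largest positive differences (left) and 11 of the largest negative differences (right) among called genes of at least 5 CPM, in the order Ep300 knockout, Crebbp knockout, double knockout and control within each row. The Ep300 and Crebbp knockout points do not overlap in any row, as the choice of genes required, and the Crebbp knockout points lie near control for Kit, Gpr37, Gjc3, Sox9 and Gas7.

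Interferon-response genes were the list most often called. Of 52 tested members, 51 were higher in Ep300 knockout and none was lower, beside 6.26% of all tested genes, and their median log2 difference was 1.68. Among the sensors and signal transducers, Stat2 differed by 1.32 ± 0.08, and Irf7, a factor that amplifies type I interferon, had 6.82, 7.74 and 9.06 CPM in Ep300 knockout, against 1.61, 1.45 and 1.32 CPM in Crebbp knockout (2.43 ± 0.14). Among effectors, the ubiquitin-like protein gene Isg15 had 88.4, 85.1 and 82.5 CPM in Ep300 knockout, against 18, 17.8 and 18.5 CPM in Crebbp knockout (2.24 ± 0.06, adjusted p = 8.93e-12, edgeR). Usp18, the protease that removes Isg15 from proteins, differed by 2.79 ± 0.09, and Xaf1 by 1.97 ± 0.07. Called members ran from 0.79 ± 0.10 for Mx1 to 3.58 ± 0.19 for Ifi205, and several belong to clusters of similar genes (Ifi204 and Ifi205, Tgtp1 and Tgtp2, Ifit3 and Ifit3b, Oas1a and Oas1b) whose counts may share reads. Ifit2 was the member not called, at 0.17 ± 0.07 (adjusted p = 0.109, edgeR), with 69.5, 59.9 and 68.7 CPM in Ep300 knockout and 59.4, 58.4 and 58.1 CPM in Crebbp knockout. Against control, 51 members were higher in Ep300 knockout (median 2.06), beside 7.27% of all tested genes, and 23 in Crebbp knockout (median 0.36), beside 1.52%.

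Isg15 shows the sequence that the factors activated by interferon are known to bind. In the RefSeq promoter on GRCm38.p6, at chr4:156200851-156200921 on the minus strand, 3 overlapping matches to GAAANNGAA are in capitals, the last 57 bases before the annotated start.
Isg15: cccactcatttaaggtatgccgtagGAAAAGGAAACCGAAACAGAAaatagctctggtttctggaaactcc
Searched on both strands in the 250 bases before each start, GAAANNGAA was in 21 of 45 promoters of the list (46.7%), in 10.7% of the promoters of genes higher in Ep300 knockout, in 5.35% of those lower, and in 6.15% of all 14092 promoters of tested genes. A match is a description of these letters and not a site.

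Genes of MHC class I antigen presentation were higher in Ep300 knockout in 17 of 22 tested members, with none lower and a median of 0.78, beside 6.26% higher and 7.37% lower among all tested genes. Nlrc5, the transactivator of class I genes, had 4.18, 4.37 and 5.53 CPM in Ep300 knockout, against 1.53, 1.66 and 1.24 CPM in Crebbp knockout (1.67 ± 0.14, adjusted p = 9.59e-07, edgeR). The peptide transporter gene Tap1 had 8.82, 9.40 and 10.7 CPM in Ep300 knockout, against 3.57, 4.15 and 3.45 CPM in Crebbp knockout (1.37 ± 0.11), and Erap1, which trims peptides, differed by 0.91 ± 0.07. B2m, the invariant light chain, had 612, 552 and 616 CPM in Ep300 knockout, against 408, 400 and 391 CPM in Crebbp knockout (0.57 ± 0.07, adjusted p = 5.58e-05, edgeR). The groups do not overlap in these 4 genes, and the light chain differed by less than the transactivator. The heavy chain genes H2-K1 and H2-D1, which resemble each other in sequence, were at 0.56 ± 0.08 and 0.54 ± 0.07. Among immune ligands and checkpoints, 5 of 17 were higher and none lower: Lgals9, Ulbp1, Lgals3, Pvr and Cd47. Lgals9, which encodes galectin-9, had 79.8, 76.7 and 83.6 CPM in Ep300 knockout, against 37.5, 40.3 and 34.6 CPM in Crebbp knockout (1.09 ± 0.07). Cd274, which encodes PD-L1, had 4.58, 4.42 and 4.94 CPM in Ep300 knockout and 4.42, 4.09 and 4.38 CPM in Crebbp knockout, and its difference of 0.11 ± 0.09 was not called (adjusted p = 0.477, edgeR). The immune marker Cd68 was called higher, at 3.25, 3.81 and 3.36 CPM in Ep300 knockout against 1.48, 1.87 and 1.67 CPM in Crebbp knockout (1.06 ± 0.14), and what such low levels add to the interferon and antigen presentation genes was not tested.

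Melanocyte genes were lower in Ep300 knockout in 19 of 28 tested members and higher in 2, beside 7.37% and 6.26% of all tested genes, with a median of -0.44. In bulk libraries such as these, fewer cells of a type and less RNA per cell cannot be told apart. Mitf (ENSMUSG00000035158, chromosome 6, 97807052 to 98021349, plus strand) had 711, 654 and 639 CPM in Ep300 knockout, against 840, 842 and 848 CPM in Crebbp knockout (-0.34 ± 0.07, adjusted p = 0.00424, edgeR). The groups do not overlap, and the call was lost when only the 6 libraries were fitted (adjusted p = 0.0515). Sox10, an activator of Mitf, had 119, 133 and 154 CPM in Ep300 knockout and 164, 170 and 143 CPM in Crebbp knockout, which overlap (-0.23 ± 0.10, adjusted p = 0.157, edgeR). It became a call without Ep300 knockout replicate 3 (-0.34, adjusted p = 0.0312, edgeR), without replicate 3 of both knockouts (-0.40, adjusted p = 0.00587) and with GC and length offsets (adjusted p = 0.0187).

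Of the pigment enzymes, Tyr, which encodes tyrosinase, had 261, 246 and 184 CPM in Ep300 knockout, against 546, 542 and 661 CPM in Crebbp knockout (-1.34 ± 0.12, adjusted p = 1.81e-06, edgeR). Dct, which acts after tyrosinase, differed by -0.47 ± 0.10 (adjusted p = 0.00613, edgeR), and the related Tyrp1 by -0.20 ± 0.09, which was not called (adjusted p = 0.154). Tyrosinase thus had the largest difference of these 3 related enzymes. Pmel, the fibril protein of melanosomes, had 1930, 1963 and 2050 CPM in Ep300 knockout, against 2684, 2776 and 2723 CPM in Crebbp knockout (-0.46 ± 0.08). Gpr143, a melanosomal receptor, differed by -0.96 ± 0.07, and Mreg, which takes part in melanosome transfer, by -0.87 ± 0.07. The 2 members higher in Ep300 knockout, named here after their values were seen, were Oca2 and Cited1. Oca2, a melanosomal anion transport protein, had 14.2, 13.3 and 14.2 CPM in Ep300 knockout, 10.3, 11.2 and 10.8 CPM in Crebbp knockout and 20.6, 19.6 and 17.9 CPM in control (0.37 ± 0.08, adjusted p = 0.00665, edgeR). Cited1, a coactivator that binds p300 and CBP, had 3.88, 3.77 and 3.71 CPM in Ep300 knockout, 2.04, 1.97 and 2.26 CPM in Crebbp knockout and 3.00, 3.06 and 3.25 CPM in control (0.86 ± 0.12, adjusted p = 0.000188, edgeR). Both were lowest in Crebbp knockout among these 3 groups.

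The M-box TCATGTG, a sequence that MITF is known to bind, is shown in capitals in the promoters of 3 melanocyte genes. On GRCm38.p6 they lie at chr7:87493513-87493559 (minus strand) for Tyr, chr14:118052366-118052422 (minus) for Dct and chr7:64153668-64153724 (plus) for the channel gene Trpm1.
Tyr: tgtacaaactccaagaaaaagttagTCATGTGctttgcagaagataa
Dct: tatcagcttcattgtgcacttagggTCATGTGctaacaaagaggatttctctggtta
Trpm1: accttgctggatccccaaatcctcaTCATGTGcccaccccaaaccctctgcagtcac
The match lies 15, 144 and 135 bases before the annotated start in these genes, whose log2 differences were -1.34, -0.47 and -0.28. It was in 6 of 33 promoters of the melanocyte list (18.2%) and in 2.00% of all promoters, with 2.14% among genes higher in Ep300 knockout and 2.60% among genes lower. Gpr143, Mlana and Pmel were looked up as well and gave no stretch to print, for want of a match or of a RefSeq promoter.

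Neural crest, glial and neuronal genes were lower in Ep300 knockout in 11 of 19 tested members and higher in 1, beside 7.37% and 6.26% of all tested genes, with a median of -0.92. Besides Cck, Gpr37, Sox9 and Cpne4, these included Mbp, myelin basic protein, with 2.78, 2.27 and 2.91 CPM in Ep300 knockout against 9.87, 8.63 and 9.96 CPM in Crebbp knockout (-1.84 ± 0.11, adjusted p = 1.96e-08, edgeR). The neuregulin receptor gene Erbb3 was at -1.18 ± 0.11, Sox5 at -0.96 ± 0.09 and S100b at -0.92 ± 0.08. The exception was Nes, the intermediate filament gene nestin, named after its values were seen, with 40.1, 40.6 and 47.2 CPM in Ep300 knockout against 13.7, 14.4 and 10.3 CPM in Crebbp knockout (1.74 ± 0.11, adjusted p = 1.55e-08, edgeR).

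Genes of the dedifferentiated and invasive melanoma state were split, with 9 of 20 tested members higher in Ep300 knockout and 3 lower (median 0.42). Of all tested genes, 6.26% were higher and 7.37% lower. Axl, a receptor tyrosine kinase of that state, had 47.0, 46.4 and 57.5 CPM in Ep300 knockout, against 14.1, 14 and 10.9 CPM in Crebbp knockout (1.95 ± 0.10, adjusted p = 2.78e-09, edgeR). Thbs1, thrombospondin 1, had 23.7, 24.5 and 28.9 CPM in Ep300 knockout, against 6.22, 5.73 and 5.63 CPM in Crebbp knockout (2.13 ± 0.10), where it stood near control (5.94, 5.26 and 6.88 CPM). The 3 lower members were Sox9, Cd44 (-0.71) and Vim (-0.39), so the list did not move as a block. AP-1 and immediate-early factors were higher in 11 of 24 members, with none lower and a median of 0.47, beside 6.26% higher among all tested genes. Fosl2 had 35.4, 35.0 and 42.5 CPM in Ep300 knockout, against 15.6, 16.4 and 13.2 CPM in Crebbp knockout (1.32 ± 0.11, adjusted p = 6.36e-07, edgeR). Egr1 had 14.7, 16.5 and 20.3 CPM in Ep300 knockout, against 7.07, 7.78 and 6.71 CPM in Crebbp knockout (1.26 ± 0.11), and Btg2 differed by 1.02 ± 0.08. Of the Jun family, Junb was called at 0.47 ± 0.09, while Jun and Jund, at 0.17 and 0.03, were not.

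Targets of YAP and TEAD, the effectors of the Hippo pathway, were higher in 11 of 25 members and lower in 3 (median 0.31). The shares of all tested genes were 6.26% higher and 7.37% lower. Ccn1, a secreted matricellular protein, had 135, 145 and 155 CPM in Ep300 knockout, against 41.4, 39.1 and 37.9 CPM in Crebbp knockout (1.88 ± 0.08, adjusted p = 2.95e-10, edgeR), and its relative Ccn2 differed by 0.93 ± 0.10. Lats2, a kinase that restrains YAP, had 44.3, 41.7 and 43.2 CPM in Ep300 knockout, against 21.1, 19.8 and 17.5 CPM in Crebbp knockout (1.15 ± 0.08). Yap1 itself was at -0.05 and not called. Cytokines and growth factors were higher in 10 of 25 members and lower in 2, beside the same shares of all tested genes. Il11 had 9.59, 10.0 and 7.88 CPM in Ep300 knockout, against 2.42, 1.99 and 2.54 CPM in Crebbp knockout and 0.584, 0.525 and 0.675 CPM in control (1.98 ± 0.11, adjusted p = 7.63e-09, edgeR). The related cytokine genes Il6 and Lif were at 2.62 ± 0.46 and 1.85 ± 0.23 at levels below 1.5 CPM in every one of the 6 libraries, and Bdnf at 0.89 ± 0.08. Ccl5, a chemokine gene that interferon can induce, went the other way, with 3.35, 2.90 and 3.52 CPM in Ep300 knockout against 6.35, 6.69 and 6.42 CPM in Crebbp knockout (-0.99 ± 0.10, adjusted p = 7.21e-06, edgeR).

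Short stretches of the Il11 and Ccn1 promoters show the letters searched for these groups, TGANTCA for AP-1 and GGAATG for TEAD factors, on GRCm38.p6 at chr7:4778208-4778264 and chr3:145650058-145650113, both on the minus strand. In Ccn1 the match reads on the opposite strand, and the capitals mark it as printed.
Il11: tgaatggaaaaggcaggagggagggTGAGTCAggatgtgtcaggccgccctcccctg
Ccn1: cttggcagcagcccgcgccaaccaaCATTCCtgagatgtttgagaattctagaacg
TGANTCA was in 8.05% of promoters of genes higher in Ep300 knockout, 5.96% of those lower and 4.63% of all. GGAATG was in 14.4% of promoters of genes higher, 11.2% of those lower and 10.9% of all, and in 10 of 21 promoters of the YAP and TEAD list (47.6%). TGACGTCA, the cAMP response element that CREB binds, was in 1.63% of promoters of genes higher, 0.917% of those lower and 2.47% of all.

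Matrix genes separated by gene rather than by family. Of 24 collagens, laminins and matrix genes, 11 were higher in Ep300 knockout and 5 lower, beside 6.26% and 7.37% of all tested genes. The chains of type I collagen, which form 1 protein, differed in opposite directions. Col1a1 had 12.3, 12.4 and 16.6 CPM in Ep300 knockout, against 5.4, 3.76 and 3.50 CPM in Crebbp knockout (1.70 ± 0.16, adjusted p = 2.43e-06, edgeR). Col1a2 had 0.611, 0.824 and 0.607 CPM in Ep300 knockout, against 4.48, 3.70 and 3.21 CPM in Crebbp knockout (-2.48 ± 0.20, adjusted p = 4.09e-07, edgeR). Both chains are also on the fibroblast marker list, of whose other members Pdgfra was tested and not called, and Lum was at 0 in Crebbp knockout. What that marker list adds to the matrix genes was not tested. Col8a1, of short-chain collagen, had 55.0, 50.1 and 51.7 CPM in Ep300 knockout, against 13.6, 12.8 and 12.8 CPM in Crebbp knockout (2.00 ± 0.07), while Fbln1, fibulin 1, had 26.1, 27.7 and 30.1 CPM in Ep300 knockout against 63.4, 65.3 and 57.7 CPM in Crebbp knockout (-1.15 ± 0.08). The groups of libraries are apart in each of these genes, in both directions.

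Among matrix proteases and inhibitors, 11 of 23 were higher in Ep300 knockout and 6 lower, beside 6.26% and 7.37% of all tested genes. The protease gene Plau had 8.82, 8.87 and 8.17 CPM in Ep300 knockout, against 2.48, 1.99 and 2.83 CPM in Crebbp knockout (1.82 ± 0.15), and the inhibitor gene Timp1 had 27.9, 25.9 and 24.7 CPM in Ep300 knockout, against 10.0, 9.20 and 9.89 CPM in Crebbp knockout (1.43 ± 0.07). Timp3, a relative of Timp1, was at -0.68 ± 0.10. Integrins and adhesion molecules were higher in 7 of 26 and lower in 8, beside the same shares. Itga3 was at 1.46 ± 0.11 and Mcam, a melanoma adhesion molecule, at 1.03 ± 0.06 with 186, 181 and 195 CPM in Ep300 knockout against 94.1, 93.3 and 87.3 CPM in Crebbp knockout, while Itga9 was at -1.02 ± 0.09. Heparan sulfate proteoglycans and their enzymes were lower in 7 of 23 and higher in 1, with Gpc1 at -1.14 ± 0.08, Sdc3 at -1.02 ± 0.11 and the heparanase gene Hpse at -0.96 ± 0.10.

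In the TGF-beta and BMP pathway, 9 of 24 were higher in Ep300 knockout and 5 lower, beside 6.26% and 7.37% of all tested genes. The ligands split. Tgfb1 had 7.16, 8.01 and 9.77 CPM in Ep300 knockout, against 4.13, 4.63 and 3.71 CPM in Crebbp knockout (1.00 ± 0.12, adjusted p = 4.20e-05, edgeR). Tgfb3 differed by 0.64 ± 0.09, and Tgfb2 by -0.60 ± 0.07, with values given below. Of the binding proteins of latent TGF-beta, Ltbp1 had 8.78, 8.38 and 9.42 CPM in Ep300 knockout, against 4.57, 4.69 and 4.33 CPM in Crebbp knockout (0.97 ± 0.09), and Ltbp4 differed by 1.17 ± 0.12. The receptor genes Tgfbr2 and Tgfbr1 were at 0.51 and -0.27, both called, in opposite directions.

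Retinoic acid genes were called in 7 of 14 tested members, 4 higher in Ep300 knockout and 3 lower. Over all tested genes, 6.26% were higher and 7.37% lower. Enzymes and receptors each stood on both sides. Beside Cyp26b1, which clears retinoic acid, Dhrs3, which reduces retinaldehyde and so limits its supply, had 4.07, 4.20 and 4.33 CPM in Ep300 knockout, against 1.61, 1.37 and 1.68 CPM in Crebbp knockout (1.43 ± 0.13, adjusted p = 1.89e-06, edgeR). Aldh1a3, a retinaldehyde dehydrogenase that makes the acid, was at -0.52 ± 0.13. Of the receptors, Rara had 10.3, 11.9 and 13.7 CPM in Ep300 knockout, against 7.94, 8.15 and 6.71 CPM in Crebbp knockout (0.66 ± 0.11), Rarg was at 0.30 ± 0.09 and Rarb at -0.65 ± 0.15 (adjusted p = 0.00827, edgeR).

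Cholesterol synthesis and SREBP targets were lower in Ep300 knockout in 22 of 34 members and higher in none, beside 7.37% and 6.26% of all tested genes, with a median of -0.30. Nsdhl, a sterol dehydrogenase, had 75.5, 77.4 and 66.0 CPM in Ep300 knockout, against 103, 110 and 106 CPM in Crebbp knockout (-0.54 ± 0.08, adjusted p = 0.000240, edgeR). Elovl6, a fatty acid elongase, and Stard4, a sterol carrier, were at -0.45 ± 0.06 each, while the regulators Srebf1 and Srebf2 were not called, at -0.14 and -0.22. Genes of the integrated stress response were lower in 13 of 34 members and higher in none (median -0.25). The cystine transporter gene Slc7a11 had 24.2, 25.6 and 28.9 CPM in Ep300 knockout, against 55.2, 52.3 and 52.1 CPM in Crebbp knockout (-1.02 ± 0.09, adjusted p = 1.19e-06, edgeR), its partner Slc3a2 was at -0.37 ± 0.06, and Atf4 itself at -0.41 ± 0.07. Hypoxia and glycolysis genes were lower in 7 of 35 and higher in 1, with Ndrg1 at -0.64 ± 0.09, and p53 targets lower in 6 of 28 and higher in 3, with Zmat3 at -0.94 ± 0.07. Glutathione and NRF2 targets were lower in 6 of 30 and higher in 3, with Hmox1, heme oxygenase, at 0.59 ± 0.07.

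In the lists of cell division every call was lower in Ep300 knockout, beside 7.37% lower and 6.26% higher among all tested genes. The share called lower was above 7.37% in the replication and MYC lists and below it in the mitosis list. Replication and E2F targets were lower in 4 of 38 and higher in none, genes of mitosis lower in 2 of 37 and higher in none, and MYC and ribosome biogenesis genes lower in 5 of 35 and higher in none, with medians of -0.06, -0.01 and -0.09. Several of these few calls depend on the fit. Aurkb, E2f2, Mybl2, Nolc1, Pold1 and Rrm1 each lost the call with only the 6 libraries fitted (adjusted p = 0.0757 to 0.172, edgeR). Myc itself had 34.1, 37.1 and 40.6 CPM in Ep300 knockout, against 64.9, 62.0 and 56.2 CPM in Crebbp knockout (-0.71 ± 0.08, adjusted p = 1.48e-05, edgeR), and its libraries do not overlap. Against the same shares of all tested genes, lysosome and vacuolar ATPase genes were lower in 4 of 34 and higher in 2, circadian clock genes lower in 3 of 18 and higher in 1, Wnt pathway genes lower in 3 of 24 and higher in 2, and NF-kappaB targets lower in 1 of 17 and higher in 3. In the Notch pathway 3 of 14 were higher and 2 lower, with the target gene Hes1 at 0.99 ± 0.13 and the receptor gene Notch1 at -0.85 ± 0.16. ERK feedback genes were called in 10 of 13 members, 5 in each direction, with Spry2 at 0.71 ± 0.07 and Dusp4 at -0.31. Histone genes without poly(A) tails were higher in 1 of 20 and lower in none, at summed levels of 4937 to 5595 CPM in Ep300 knockout and 4788 to 6011 CPM in Crebbp knockout. Against control, 4 were higher in Ep300 knockout and 6 in Crebbp knockout, beside 7.27% and 1.52% of all tested genes. What they say of RNA quality was not tested.

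Factors that bind p300 or CBP were called in both directions. Of 56 transcription factors known to bind p300 or CBP, 11 were higher in Ep300 knockout and 10 lower, with Irf7 and Stat2 among those with the smallest adjusted p. Of 43 acetyltransferases, deacetylases and bromodomain proteins, 4 were higher and 1 lower, beside 6.26% and 7.37% of all tested genes, and Crebbp is 1 of the 4. Kat2b, the acetyltransferase PCAF, had 106, 98.9 and 103 CPM in Ep300 knockout, against 83.8, 84.3 and 79.2 CPM in Crebbp knockout (0.31 ± 0.06, adjusted p = 0.00163, edgeR), and Hdac7 had 8.39, 9.66 and 10.4 CPM in Ep300 knockout against 5.01, 5.75 and 4.80 CPM in Crebbp knockout (0.87 ± 0.10). CREB and cAMP genes were called in 10 of 30 members, 5 in each direction, with the phosphodiesterase gene Pde4a at 0.95 ± 0.13 and the adenylyl cyclase gene Adcy2 at -2.16 ± 0.20. Rapgef3, a cAMP-activated exchange factor, stood near the same level in both knockouts, at 5.95, 6.70 and 6.58 CPM in Ep300 knockout and 6.57, 7.38 and 6.59 CPM in Crebbp knockout, against 12.9, 13.2 and 14.7 CPM in control, and its direct difference was -0.09 ± 0.09 (adjusted p = 0.588, edgeR).

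**Figure D3:**
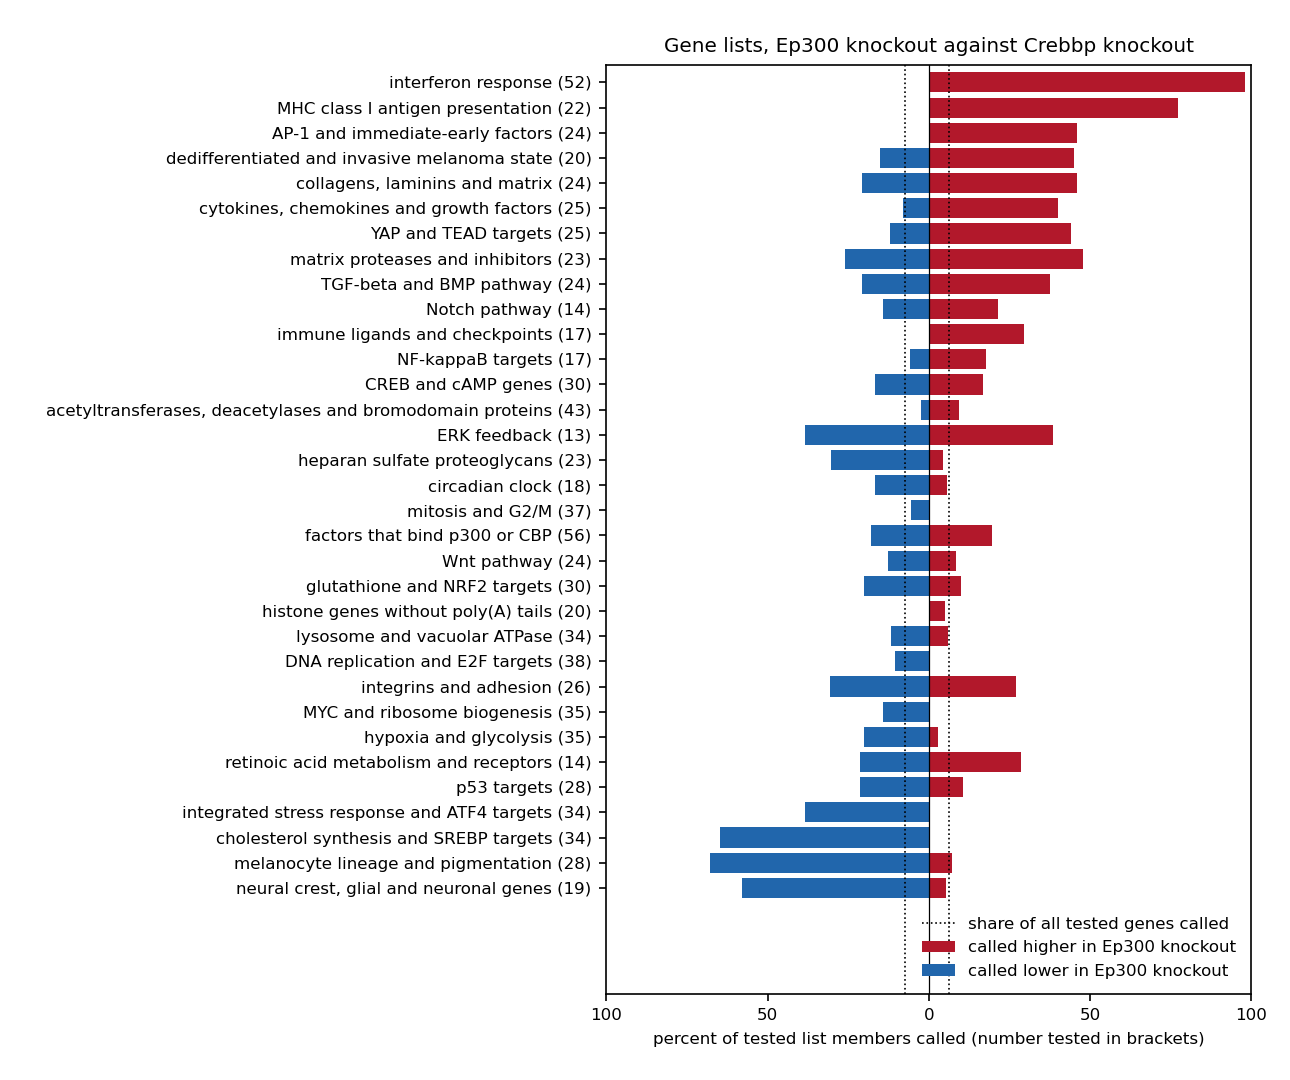
Percent of the tested members of 33 gene lists that were called higher (red, to the right) or lower (blue, to the left) in Ep300 knockout than in Crebbp knockout, with the number tested in brackets and dotted lines at the shares of all tested genes, 6.26% higher and 7.37% lower. Lists are ordered by median log2 difference. Interferon response, with 51 of 52 members higher, and neural crest, glial and neuronal genes, with 11 of 19 lower, stand at opposite ends. Melanocyte lineage, with 19 of 28 lower, is next to the latter, and several lists extend to both sides.

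Genes called against control in opposite directions by the 2 losses numbered 26, of which 15 were higher in Ep300 knockout and lower in Crebbp knockout, and 11 the reverse. The number depends on the fit: it was 57 with DESeq2, 83 with GC and length offsets and 65 without replicate 3 of both knockouts. It was 11 when only control and both single knockouts were fitted, and 9 to 35 when 1 library was left out. It moved by over 1.5 times without 1 of these libraries: control replicates 3 (9), 1 (11) and 2 (14), Crebbp knockout replicates 2 (10) and 1 (11) and double knockout replicate 3 (17). Cck, Cyp26b1, Sema6a and Mme remained called in opposite directions in all 21 alternatives, and Mlkl and Fam241b in 20. All 26 were also called between the knockouts, which the choice by 2 opposite calls makes likely. For that reason their direct differences are a description. The direct p-values printed above for Cck, Cyp26b1, Mbp and Dhrs3 add no support to the opposite directions. Predicted genes account for 3 of the 26, and 8 averaged under 5 CPM over the control and single knockout libraries.

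Cyp26b1 (ENSMUSG00000063415, chromosome 6, 84571414 to 84593908, minus strand) was at 1.32 to 1.83 CPM in Ep300 knockout and 14.2 to 15.9 CPM in Crebbp knockout, with control between them at 5.82, 5.05 and 6.51 CPM. Its log2 change against control was -1.80 ± 0.13 in Ep300 knockout and 1.40 ± 0.12 in Crebbp knockout, while double knockout stood at -1.30. Cck (ENSMUSG00000032532, chromosome 9, 121489824 to 121495694, minus strand) likewise had control in the middle, at 9.24, 8.17 and 9.08 CPM, with changes of -2.35 ± 0.11 in Ep300 knockout, 0.99 ± 0.10 in Crebbp knockout and, for double knockout, -3.34. Sema6a, a transmembrane semaphorin, had 9.52, 10.1 and 11.5 CPM in Ep300 knockout, 40.7, 41.2 and 33.8 CPM in Crebbp knockout and 27.3, 22.2 and 27.2 CPM in control. No library of 1 group overlaps another group in these 3 genes, and double knockout lay below control in each. Mme, the membrane peptidase neprilysin, named after its values were seen, had 2.17, 2.27 and 2.25 CPM in Ep300 knockout, 4.86, 5.14 and 4.98 CPM in Crebbp knockout and 3.05, 3.27 and 3.19 CPM in control.

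Of the rest that were higher in Crebbp knockout, Mbp stood at 6.69, 6.61 and 6.01 CPM in control, between its levels in the knockouts. Epha3, an ephrin receptor and a relative of Epha2, was the most abundant, with 134, 132 and 140 CPM in Ep300 knockout, 365, 372 and 343 CPM in Crebbp knockout and 302, 285 and 301 CPM in control. Its direct difference has the opposite sign to that of Epha2. The change in Crebbp knockout against control was small (0.28 ± 0.06, adjusted p = 0.0286, edgeR), and the opposite calls were lost in 9 of 21 alternatives. Ctxn1, a neuronal membrane protein gene, had 7.89, 8.24 and 9.16 CPM in Ep300 knockout, 15.1, 17.1 and 15.4 CPM in Crebbp knockout and 12.4, 11.2 and 12.5 CPM in control. Pcx, pyruvate carboxylase, had 4.46, 4.51 and 4.87 CPM in Ep300 knockout, 8.84, 7.81 and 7.30 CPM in Crebbp knockout and 6.12, 5.37 and 6.23 CPM in control. Tgfb2 (ENSMUSG00000039239, chromosome 1, 186622792 to 186705989, minus strand) had 15.4, 14.8 and 15.7 CPM in Ep300 knockout, 23.3, 24.6 and 21.4 CPM in Crebbp knockout and 17.6, 18.4 and 18.9 CPM in control. In double knockout Pcx and Tgfb2 averaged 6.41 and 17.4 CPM, near control. Each of these 2 genes remained called in opposite directions in 12 of 21 alternatives. The class also held the cell adhesion gene Cntn1 and Hectd2, both below 5 CPM.

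In the other direction, Mlkl (ENSMUSG00000012519, chromosome 8, 111311797 to 111338177, minus strand), the pore-forming effector of necroptosis, had 78.7, 78.8 and 76.3 CPM in Ep300 knockout, 49.8, 47.8 and 50.3 CPM in Crebbp knockout and 59.8, 65.4 and 58.7 CPM in control. Its changes were 0.35 ± 0.06 in Ep300 knockout and -0.31 ± 0.06 in Crebbp knockout, small beside those of Cyp26b1 but with little spread between libraries. Hmga2, an architectural chromatin protein, had 65.0, 67.1 and 65.3 CPM in Ep300 knockout, 44.1, 47.0 and 41.7 CPM in Crebbp knockout and 51.7, 54.1 and 53.4 CPM in control. Its opposite calls remained in 13 of 21 alternatives. Capg, an actin-capping protein, had 50.5, 52.1 and 44.8 CPM in Ep300 knockout, 25.3, 26.4 and 28.5 CPM in Crebbp knockout and 31.9, 39.9 and 33.5 CPM in control. Fam241b had the largest direct difference among those of at least 5 CPM, 1.75 ± 0.16, at 8.99, 10.4 and 7.06 CPM in Ep300 knockout, 2.25, 2.61 and 3.00 CPM in Crebbp knockout and 4.75, 5.46 and 4.11 CPM in control. Tnfaip2, induced by tumour necrosis factor, averaged 29.0 CPM in Ep300 knockout, 18.4 CPM in Crebbp knockout and 23 CPM in control. Speg, Ttc39b and the RNA-binding protein gene Igf2bp1 had smaller changes in Ep300 knockout, 0.20 to 0.26, and the opposite calls were lost in 15 of 21 alternatives for Igf2bp1, 13 for Ttc39b and 11 for Speg. Dhrs3, whose values are given above, stood at 2.86, 2.22 and 2.32 CPM in control, and the class also held Gramd1c, Mill2, an MHC class I-like gene, and the olfactory receptor gene Olfr56, all below 5 CPM. The retinoic acid list therefore has a member in each of the opposite classes, Dhrs3 and Cyp26b1.

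**Figure D4:**
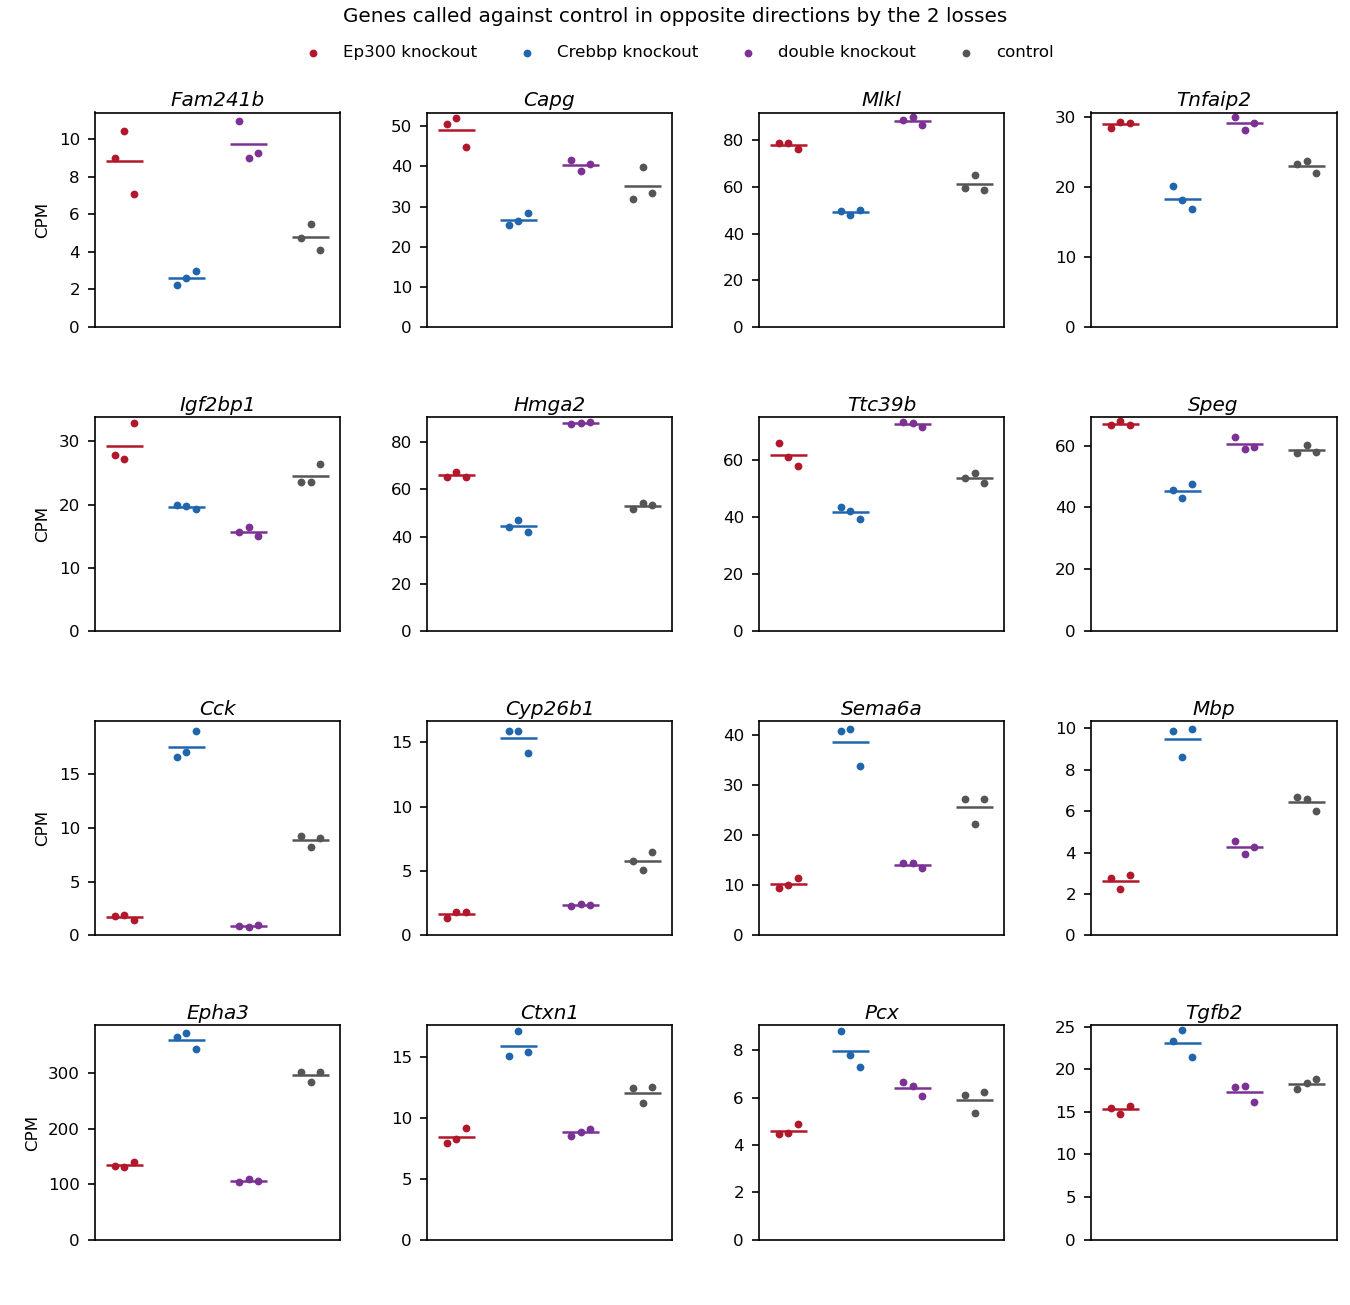
CPM in each library (points) and group means (lines), axes from 0, for the 16 named genes of at least 5 CPM called against control in opposite directions, in the order Ep300 knockout, Crebbp knockout, double knockout and control. The upper 8 genes have Ep300 knockout above control and Crebbp knockout below it, and the lower 8, from Cck to Tgfb2, have Ep300 knockout below control and Crebbp knockout above it.

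Most genes called between the knockouts had the larger change in Ep300 knockout. Of the 2512, 1763 were called in Ep300 knockout against control with the larger absolute log2 change there, 785 higher and 978 lower. The larger change lay in Crebbp knockout for 124 genes called in Crebbp knockout, 67 lower and 57 higher there, and 106 of these were not called in Ep300 knockout. Both counts follow from values that chose the genes and carry no test. Processed pseudogenes are common among the 57 genes higher in Crebbp knockout and rare among the 67 lower there. Their counts may share reads with related genes, and what that adds to the class was not tested. Leaving out 1 library gave 36 (Crebbp knockout replicate 2), 47 (control 3), 69 (Crebbp knockout 1), 74 (control 1), 80 (double knockout 1), 81 (Ep300 knockout 2) or 82 (double knockout 3) in place of 124, and leaving out replicate 3 of both knockouts gave 511. In a further 624 genes neither knockout was called against control, and the control mean lay between the means of the knockouts in 600 of them. Choosing genes by a direct call without a call against control makes that position likely.

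Crebbp itself was among the genes with the larger change in Crebbp knockout. Nppb, which encodes the natriuretic peptide BNP, had 69.0, 62.4 and 54.4 CPM in Ep300 knockout, 24.3, 24.3 and 34.1 CPM in Crebbp knockout and 35.4, 53.2 and 44.7 CPM in control, with a direct difference of 1.17 ± 0.16. The serpin gene Serpinb9b had 8.25, 5.76 and 5.63 CPM in Ep300 knockout, 3.77, 3.72 and 4.35 CPM in Crebbp knockout and 6.36, 7.61 and 6.55 CPM in control (0.73 ± 0.15). Abca1, the cholesterol exporter, had 17.1, 21.8 and 22.4 CPM in Ep300 knockout, 13.7, 14.3 and 11.8 CPM in Crebbp knockout and 22.4, 17.3 and 20.2 CPM in control (0.63 ± 0.12). In Serpinb9b and Abca1 the Ep300 knockout libraries overlap those of control and the Crebbp knockout libraries lie below both. Tnfaip8, an inhibitor of apoptosis, was at 0.70 ± 0.12, the sodium channel gene Scn1a at 0.65 ± 0.11, Larp1b at 0.63 ± 0.09 and the oxidase gene Aox1 at 0.62 ± 0.10. From the lists, Srxn1, the enzyme sulfiredoxin of the NRF2 targets, belonged here too, with 49.6, 46.6 and 49.2 CPM in Ep300 knockout, 35.5, 36.1 and 34 CPM in Crebbp knockout and 47.3, 52.7 and 48.2 CPM in control (0.46 ± 0.06).

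Among genes raised in Crebbp knockout, Tmeff1 had 10.3, 9.39 and 10.1 CPM in Ep300 knockout, 14.7, 14 and 15.2 CPM in Crebbp knockout and 10.5, 10.2 and 10.3 CPM in control (-0.56 ± 0.07). Nr2f2, the orphan nuclear receptor COUP-TFII, had 34.8, 35.4 and 40.0 CPM in Ep300 knockout, 55.3, 53.7 and 50.8 CPM in Crebbp knockout and 45.0, 37.9 and 44.1 CPM in control (-0.54 ± 0.08). Tecr, an enoyl reductase of fatty acid elongation, had 84.0, 92.3 and 97.1 CPM in Ep300 knockout, 122, 128 and 126 CPM in Crebbp knockout and 102, 95.3 and 98.3 CPM in control (-0.46 ± 0.07). In all 3, every Crebbp knockout library is above every library of Ep300 knockout and control. Uchl1, a deubiquitinating enzyme, was at -0.53 ± 0.10, Ttyh3 at -0.53 ± 0.10 and the imprinted gene Mest at -0.46 ± 0.09. Srm, spermidine synthase, was at -0.36 ± 0.07. Tgfb2 and Pcx belong both here and to the opposite class.

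**Figure D5:**
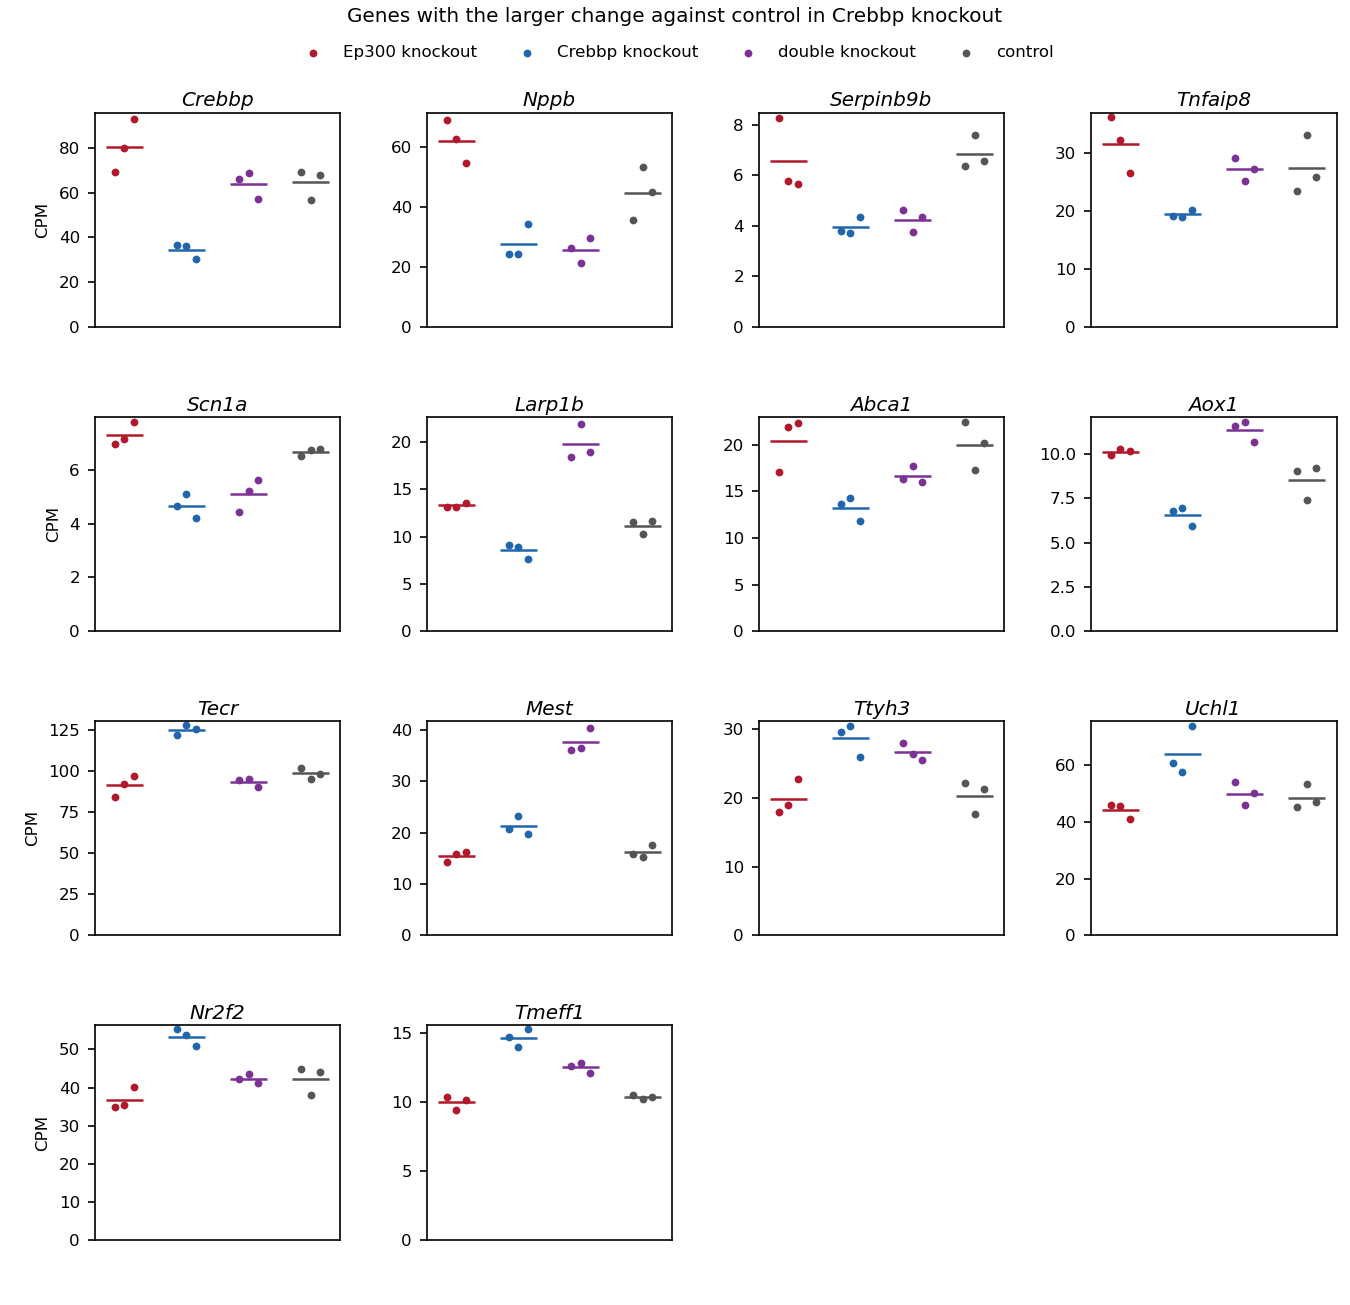
CPM in each library (points) and group means (lines), axes from 0, for 14 genes with the larger change against control in Crebbp knockout, in the order Ep300 knockout, Crebbp knockout, double knockout and control. In the upper 8 genes Crebbp knockout lies below Ep300 knockout and control, and in the lower 6, from Tecr to Tmeff1, it lies above both.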

How the data were processed

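RNA was measured in 12 B16F10 libraries prepared with a stranded mRNA kit, per the labels' protocols. Per the submitters' processing notes, the authors used bcl2fastq, HISAT2 and HTSeq with build mm10. The sources used here give no versions, annotation release, strand setting or handling of reads shared between genes. The authors deposited raw counts per Ensembl gene for 54752 genes, of which 54723 had a symbol and position in GENCODE vM21 and the others were not named. Filtering with filterByExpr of edgeR 4.0.16 left 18434 genes, scaled by TMM. All 12 libraries were fitted together with the group as the only term in the robust quasi-likelihood test of edgeR, and standard errors were derived from its F statistic. The biological coefficient of variation was 9.46%. A median standard error of 0.431 on the log2 scale under 1 CPM, against 0.0844 at 100 CPM or more, limits what can be called in rare transcripts.

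The members and gene lists were chosen with earlier results of these data known. Genes named were the 2 targets with Cd274, B2m, Myc, Sox10 and Mitf, the 12 largest called differences each way with at least 5 CPM and libraries that do not overlap, up to 10 of each opposite class, the 8 largest each way with the larger change in Crebbp knockout, and the 3 list members with the smallest adjusted p. Genes that are mitochondrial, predicted or named after a clone were left unnamed but counted. A few genes that the rule names are not reported here. Other list members are named as examples after their values were seen. Promoters of 11048 genes came from RefSeq on GRCm38.p6. Alternatives were DESeq2 1.42.0, limma-voom (limma 3.58.1, R 4.3.3), RLE size factors, other filters on low counts, a block on replicate number, a fit of only the groups compared, offsets for GC content and exon length, and each library left out in turn. The fit of only the groups compared used the libraries of both single knockouts for direct differences and direct calls. For opposite-direction calls and for the larger change it used those libraries with control. Leaving out replicate 3 of both knockouts was added after seeing the data. The fit was tested on simulated counts.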

Additional observations from a re-analysis of the deposited data

How the results depend on the processing

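The direct comparison gave 1780 to 2783 calls when 1 library was left out, against 2512 in the full fit, and 1716 to 2497 of those 2512 genes were still called. Opposite-direction calls, and those among them also called between the knockouts, numbered 57 with DESeq2, 45 without a filter on low counts, 11 with a block on replicate number, 11 with only the groups compared, 83 with the length and GC offsets, 65 without replicate 3 of both knockouts, and 9 to 35 without 1 library. Genes with the larger change in Crebbp knockout numbered 254, 282, 54, 50, 316 and 511 in the same settings, and 36 to 174 without 1 library. Calls of at least 2-fold were 391 with a filter of 1 CPM, which tests fewer genes, and calls lower in Ep300 knockout 876 with only the groups compared. Calls higher were 1847 with the offsets and 1851 without replicate 3 of both knockouts, where all calls were 3815. The causes of these shifts were not tested, other than the fewer genes under the 1 CPM filter. Ep300 was called at -0.29 with DESeq2, -0.29 without the filter, -0.26 with the offsets and -0.47 without replicate 3 of both knockouts, and ran from -0.39 to -0.23 without 1 library.

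Same-numbered Ep300 and Crebbp knockout libraries deviated with correlations of 0.0176, -0.0335 and -0.17, so the numbers do not pair them, and the block gave 2028 direct calls. Of the log2 differences of named genes other than the targets, over all alternatives, 2883 kept direction and side of the threshold, 74 lost the call, 3 gained it and none reversed. Most of the losses fell on Cflar, Aurkb, E2f2, Rrm1, Mybl2, Cdh1 and Nolc1, each of which lost the call in several alternatives. Mitf lost it only when the 6 libraries were fitted alone (-0.33, adjusted p = 0.0515, edgeR). Differences of rare transcripts are limited by depth.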
